A study of Mus musculus with 6 samples.

Results

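The 42 genes described here are genes of the cell cycle and of DNA replication, taken from a list of symbols among the 24421 genes counted. This list was chosen with earlier results of these data known. The genes fall into 6 cyclins and kinases of G1 and S entry, 5 transcription factors, 14 genes of S phase and 17 genes of mitosis. All 42 had reads in each of the 6 libraries, and the question asked of them is how their levels, and the balance of S phase against mitosis genes, differ when the histone methyltransferase Dot1l is deleted or overexpressed. Skin blood endothelial cells (BECs) came from E15.5 mouse embryos, either Tie2-Cre(+); Dot1l 2f/2f (cKO) or littermate Tie2-Cre(−); Dot1l 2f/2f (Cont), so that both genotypes carry the floxed Dot1l alleles and only cKO embryos carry the Cre, which Tie2 drives in endothelial and also in blood-lineage cells. These cells were sorted as negative for F4/80, CD45 and Lyve1, and a figure legend of the study also lists CD31 as a positive marker. RNA of 2 to 3 embryos was pooled for each library. The other 4 libraries came from a yolk sac BEC line (CRL-2581) and dermal lymphatic endothelial cells (C57-6064L, LECs), each transduced with empty lentivirus (Cont) or with a lentivirus carrying dCas9 fused to VP64 with guide RNAs to the Dot1l promoter (OE-BECs and OE-LECs) and sorted for green fluorescence, cells of 2 to 3 flasks being joined. With a single library for every condition (1 each), no difference was tested against replicates, and every interval below covers counting error only.

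Cells pass from G1 into S phase when D-type and E-type cyclins activate their kinases, the retinoblastoma proteins are inactivated and E2F factors turn on the genes of DNA synthesis. The MCM helicase, loaded by Cdc6 and Cdt1 and activated by Cdc45 and the GINS complex, then opens the DNA, while ribonucleotide reductase and thymidylate synthase supply nucleotides. Genes of G2 and mitosis are turned on later by B-Myb (Mybl2), Foxm1 and the MuvB complex, often through a promoter element called the cell cycle homology region (CHR) together with CCAAT boxes.

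The promoters of the 2 main groups differed in these elements, and 4 of them are shown because the medians of the S phase and mitosis genes stood apart in skin and in OE-LECs. Windows of 250 bases before to 50 bases after the annotated start were available from RefSeq (GRCm38.p6) for 33 of the 42 members, and were searched on both strands for TTTGAA (the CHR core), CCAAT, and TTTCCCGC or TTTGGCGC (E2F sites), none of which contains another. Motifs found are in capitals, either as spelled or as the reverse complement.
Cdk1, chr10:69352863-69353162, minus strand: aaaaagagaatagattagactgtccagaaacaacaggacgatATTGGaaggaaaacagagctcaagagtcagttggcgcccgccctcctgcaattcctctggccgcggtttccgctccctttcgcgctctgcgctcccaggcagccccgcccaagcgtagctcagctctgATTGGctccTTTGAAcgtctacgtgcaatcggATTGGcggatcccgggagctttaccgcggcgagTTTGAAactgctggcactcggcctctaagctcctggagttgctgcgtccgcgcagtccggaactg
Ccnb2, chr9:70421505-70421804, minus strand: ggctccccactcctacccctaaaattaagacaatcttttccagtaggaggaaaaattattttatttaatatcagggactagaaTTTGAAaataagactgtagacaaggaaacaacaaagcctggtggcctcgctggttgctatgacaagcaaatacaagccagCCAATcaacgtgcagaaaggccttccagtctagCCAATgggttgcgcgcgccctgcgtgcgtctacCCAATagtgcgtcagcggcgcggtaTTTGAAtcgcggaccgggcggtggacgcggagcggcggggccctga
Mcm6, chr1:128359656-128359955, minus strand: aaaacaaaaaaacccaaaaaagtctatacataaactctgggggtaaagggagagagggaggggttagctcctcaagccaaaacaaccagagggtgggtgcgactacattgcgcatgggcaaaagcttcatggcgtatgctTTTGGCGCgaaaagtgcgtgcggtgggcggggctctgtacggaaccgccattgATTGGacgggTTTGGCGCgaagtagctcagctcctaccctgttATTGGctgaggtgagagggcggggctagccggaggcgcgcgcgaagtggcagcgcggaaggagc
Mcm3, chr1:20820263-20820562, minus strand: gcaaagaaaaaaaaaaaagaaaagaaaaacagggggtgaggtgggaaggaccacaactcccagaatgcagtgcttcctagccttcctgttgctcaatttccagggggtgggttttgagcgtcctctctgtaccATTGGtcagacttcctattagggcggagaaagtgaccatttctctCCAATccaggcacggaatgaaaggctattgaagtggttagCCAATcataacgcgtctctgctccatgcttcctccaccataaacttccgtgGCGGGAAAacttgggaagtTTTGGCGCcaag
The Cdk1 and Ccnb2 windows hold the CHR core with CCAAT boxes, and the Mcm6 and Mcm3 windows hold E2F sites. Among 14 mitosis genes with a window, 10 (71.4%) held the CHR core and 0 held an E2F site. Among 12 S phase genes, 6 (50%) held an E2F site and 2 (16.7%) the CHR core. Over all 27025 genes with a window, 20.2% held the CHR core and 1.8% an E2F site. CCAAT was in 13 of the 14 mitosis and 9 of the 12 S phase windows, against 41.1% of all genes. The split was less sharp in the lists of genes outside the 42 that are described below. Of other mitosis genes, 22 of 32 with a window held the CHR core and 4 an E2F site. Of other replication genes, 6 of 27 held an E2F site and 4 the CHR core. All of these are matches of letters, and binding was not measured.

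The skin libraries held 8863349 (Cont) and 11084686 reads (cKO), those of the BEC line 17685615 (Cont) and 13933651 (OE), and those of the LECs 26117161 (Cont) and 31032461 (OE), and the 42 genes took 0.492% to 0.93% of them. Dot1l had 762 and 944 reads in the skin libraries (86 and 85.2 counts per 1000000 reads, CPM), with no clear fall. The second is therefore called the library labelled cKO throughout. The study reports RT-qPCR as its check of the knockout. Reads here were counted over the whole gene, so the deleted part was not looked at alone. In the cultured BECs Dot1l had 1972 and 4208 reads, and in the LECs 2490 and 6720. Blood endothelial markers were present in every library, with none at 0. Of 6 lymphatic markers, 3 had reads in both LEC libraries, with sums of 2105 and 2093 CPM against 748 and 1160 in the BEC line, and 3 had 0 reads there, Prox1 (the defining transcription factor), Pdpn and Ccl21a. The highest single marker held 1998 and 1962 CPM of the LEC sums. The skin BEC libraries summed to 1953 and 2424 CPM on the same list, with only Ccl21a at 0. These sums therefore do not set the LECs apart from the skin BECs. Macrophage markers were present in skin although F4/80 and CD45 cells were depleted. The 10 macrophage genes summed to 3788 counts per 1000000 reads (CPM) in Cont against 6068 in the cKO-labelled library, with 10 of 10 higher, against 5 or 6 of 10 at 0 in the cultured libraries. Blood endothelial markers were lower there in 10 of 11 (7276 against 4625 CPM). In bulk RNA, fewer cells of a type and less RNA per cell cannot be told apart.

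Levels per length (TPM, reads per base of exon scaled to a sum of 1000000) are compared first, since they place the genes within each library. The mitosis genes summed to 3549 and 4097 TPM in the skin libraries and to 1768 to 2561 in the cultured ones, while the S phase genes summed to 1877 and 1775 TPM in skin and 1499 to 2734 in culture. The ratio of the S phase sum to the mitosis sum was 0.529 in skin Cont and 0.433 in the library labelled cKO, 0.848 and 0.904 in Cont BECs and OE-BECs, and 0.996 and 1.33 in Cont LECs and OE-LECs. With the median TPM of each group in place of the sum, the ratio was 0.898 and 0.746 in skin, 1.05 and 0.998 in the BEC line and 0.788 and 0.971 in the LECs. The order of the cell types and the direction in OE-BECs thus depended on whether sums or medians were taken, while the ratio was lower in the library labelled cKO and higher in OE-LECs both ways. Mki67, a marker of cycling cells, made up 31.8% and 32.1% of the mitosis TPM in skin and 7.01% to 18.1% in culture. Mki67 stood at 1130 and 1314 TPM in the skin libraries, 310 and 464 in the cultured BECs, and 180 and 153 in the LECs. Its order between the cell types was thus the same whichever library of a pair was taken. Rrm2, the small subunit of ribonucleotide reductase, ran the other way, with 141 and 96.1 TPM in skin, 185 and 356 in the BEC line and 746 and 946 in the LECs.

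**Figure D1:**
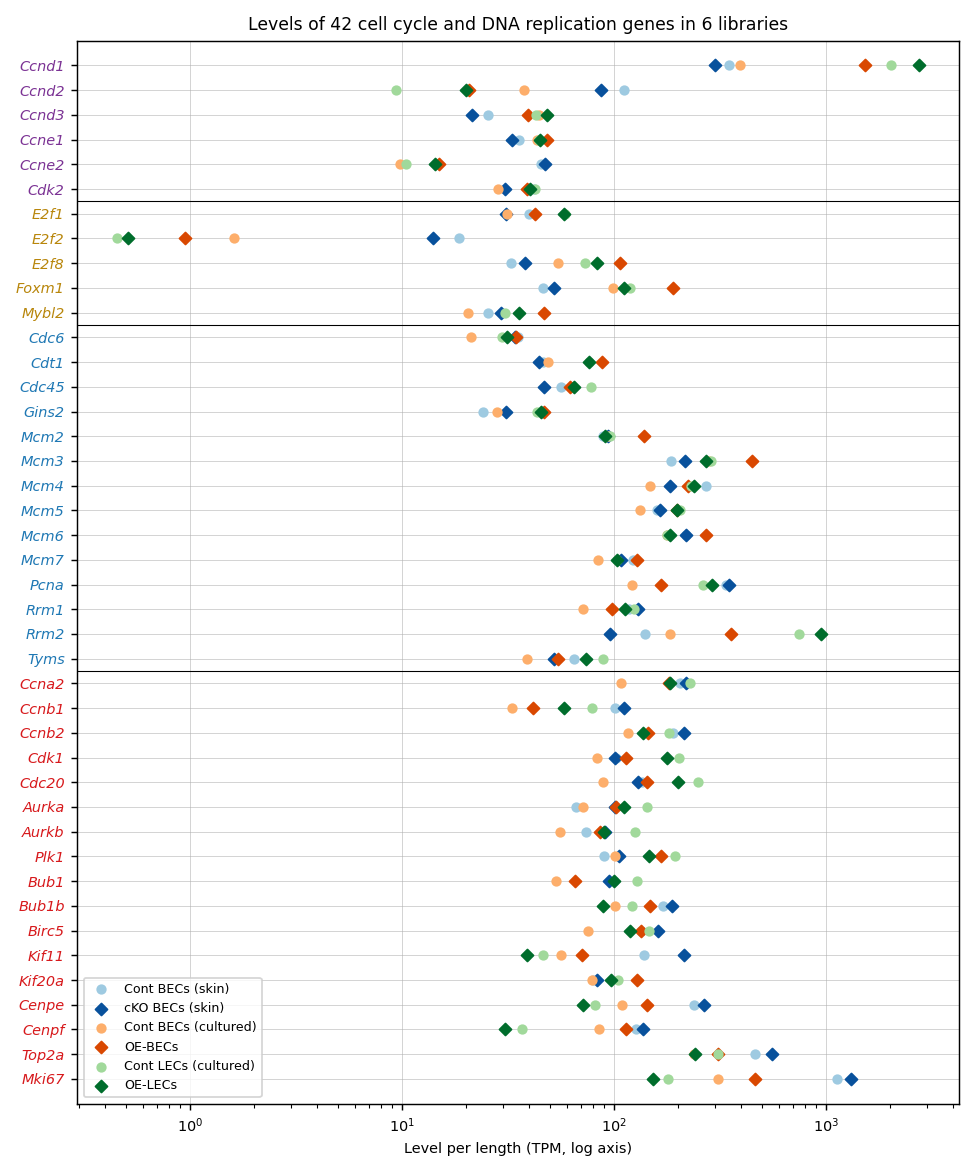
Level of each gene in TPM (log axis) in the 6 libraries, 1 point per library, with circles for controls and diamonds for changed libraries, and gene names coloured by group (G1 and S entry, transcription factors, S phase, mitosis from top to bottom). Mki67 is highest in the skin libraries, Rrm2 and Ccnd1 are highest in the LECs, and E2f2 is lowest in culture.

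E2f2, an E2F family activator, had the widest range of the 42, 33.8-fold in CPM. It had 172 and 170 reads in skin and 14 to 32 in culture. By contrast Mcm6 and Mcm7, subunits of the helicase, spanned only 1.45- and 1.44-fold. The highest CPM was in the Cont LEC library for 15 of the 42 genes and in the library labelled cKO for 10, which included 8 mitosis genes each.

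The D-type cyclins, partners of Cdk4 and Cdk6 in G1, held the largest difference in OE-BECs (Ccnd1) and in OE-LECs (Ccnd2). Ccnd1 (chr7:144929931-144939925, minus strand, GRCm38) stood at 351 and 300.2 TPM in the skin libraries, 392 and 1539 in Cont BECs and OE-BECs, and 2027 and 2765 in Cont LECs and OE-LECs. Ccnd2 stood at 112, 87.4, 37.8, 20.7, 9.42 and 20.1 TPM in the same order. Ccnd2 was thus lower in culture than in skin, and Ccnd1 was highest in OE-BECs and the LECs. Ccnd1 had 1.57 and 1.72 times the reads of Ccnd2 in skin, 5.2 and 37.3 times in cultured BECs, and 108 and 68.8 times in LECs. Overexpression went with opposite differences of Ccnd2 in the 2 lines: reads went from 1436 to 587 in BECs, a log2 ratio of -0.91 (interval -1.05 to -0.77), and from 598 to 1516 in LECs, a log2 ratio of 1.11 (0.97 to 1.25). Ccnd1 was higher in both, with 7472 and 21898 reads in BECs, a log2 ratio of 1.93 (1.90 to 1.97), and 64396 and 104232 reads in LECs, a log2 ratio of 0.46 (0.45 to 0.48). All 3 D-type cyclins were lower in skin cells labelled cKO, with log2 values of -0.21 (Ccnd1), -0.34 (Ccnd2) and -0.23 (Ccnd3). Small parts of the exons of Ccnd2 (3.91%) and Ccnd3 (4.11%) overlap a gene on the opposite strand.

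**Figure D2:**
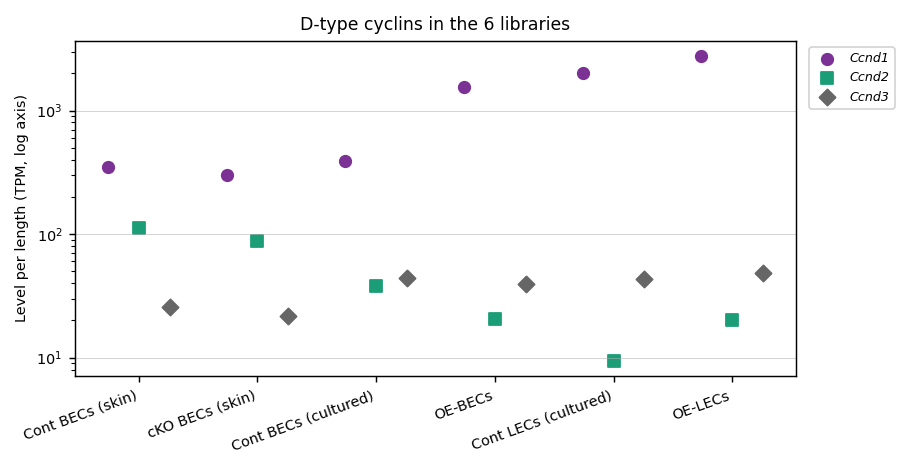
Level in TPM (log axis) of Ccnd1, Ccnd2 and Ccnd3 in each of the 6 libraries. Ccnd1 lies between 300.2 and 392 TPM in skin and Cont BECs and between 1539 and 2765 in OE-BECs and the LECs, while Ccnd2 lies between 9.42 and 112.

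Of the other genes of S entry, Ccne1 had 179 and 219 reads in skin, 467 and 390 in BECs and 795 and 953 in LECs, with intervals that include 0 in all 3 comparisons. Ccne2 was higher in OE-BECs (log2 ratio 0.58) and in OE-LECs (0.47), and 17.4% of its exon bases overlap Ints8. Cdk2, the partner of both E-type cyclins, was lower in the library labelled cKO (-0.44) and higher in OE-BECs (0.41).

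Members past set folds are counted here beside all genes of the same comparison. By the study's rule of over 3-fold, 0 of the 42 were higher and 0 lower in the library labelled cKO, where 5.17% and 2.41% of the 15993 genes with at least 5 normalized counts were called, and 1.19% and 0.509% of those with at least 100. Ccnd1 alone was higher in OE-BECs and 0 were lower, where 8.02% and 5.27% of the 14792 genes with at least 3 normalized counts were called, and 0.527% and 1.55% of those with at least 100. The OE-LECs had 0 in either direction, where 2.77% and 2.09% of 13883 genes were called, and 0.59% and 0.238% at the higher count. The shares at 100 counts are the nearer ones for these genes, since all but E2f2 in culture reach that count. By a rule of over 1.5-fold that also asked for 100 normalized counts or more in the library where the gene was higher, which 42, 41 and 41 of the genes passed on counts (E2f2 did not in culture), 2 were higher (Kif11, Aurka) and 0 lower in the library labelled cKO, against 8.88% and 7.69% of all genes. The OE-BECs had 16 higher and 1 lower (Ccnd2), against 7.25% and 11%. The OE-LECs had 1 higher (Ccnd2) and 0 lower, against 3.72% and 3.05%. By intervals that lie wholly on one side of 0, the counts were 18 higher and 11 lower in the library labelled cKO, against 25.6% and 33.5% of all genes, 37 and 2 in OE-BECs, against 30.6% and 35.1%, and 10 and 23 in OE-LECs, against 27.8% and 24.5%.

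**Figure D3:**
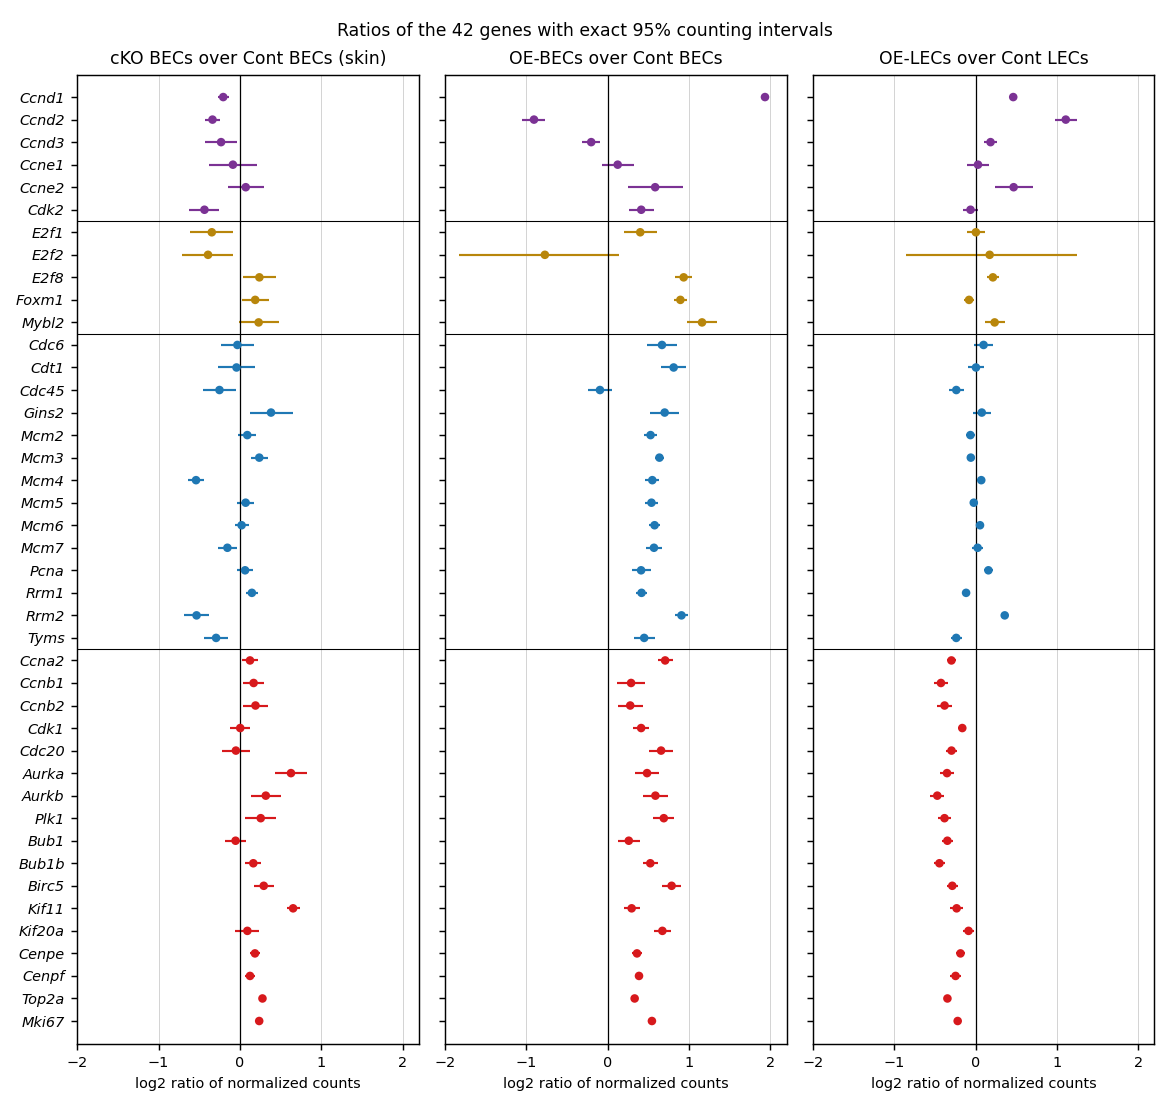
Log2 ratio of normalized counts, changed library over its control, for each of the 42 genes in the 3 comparisons, with exact 95% counting intervals. Colours mark G1 and S entry (violet), transcription factors (ochre), S phase (blue) and mitosis (red), and the mitosis genes are all above 0 in OE-BECs and all below 0 in OE-LECs.

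In skin, the library labelled cKO had slightly higher mitosis genes than Cont while its S phase genes were split around 0. The 17 mitosis genes had a median log2 ratio of 0.18, with 15 higher and 13 beyond their interval, and the 14 S phase genes a median of -0.0055, with 7 higher and 7 lower. Over all genes with at least 100 counts the median was -0.039, and 25.6% were higher beyond their interval. Kif11, the kinesin that pushes the spindle poles apart, had 1951 and 3989 reads, a log2 ratio of 0.65 (0.58 to 0.73). Aurka, the centrosome kinase, had 318 and 639 reads, a log2 ratio of 0.63 (0.43 to 0.83). Both lay well above the other mitosis genes, the next being Aurkb at 0.32. Cdc20, the activator of anaphase, and Bub1, a kinase of the spindle checkpoint, each had -0.05, and Cdk1 0.0034. Among S phase genes, Mcm4 and Rrm2 were lowest, with 1849 and 1652 reads (-0.54) and 739 and 663 reads (-0.53), and Gins2 was highest (0.38), though 67.3% of its exon bases overlap Gse1. In the same library macrophage markers (10 of 10) and mast cell markers (5 of 6, 2370 against 3335 CPM) were higher, and blood endothelial (10 of 11), pericyte (6 of 6, 724 against 563 CPM) and fibroblast markers (5 of 6, 2510 against 1849 CPM) were lower. Their part in these differences was not tested.

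In OE-BECs 38 of the 42 genes were higher than in Cont BECs. All 17 mitosis genes were higher, each beyond its interval, with log2 ratios of 0.26 (Bub1) to 0.79 (Birc5, survivin of the chromosomal passenger complex). Of the S phase genes 13 of 14 were higher, from 0.41 (Pcna, the polymerase clamp) to 0.91 (Rrm2), and Cdc45 had -0.10. The group medians were 0.48 and 0.56, where the median of all genes was -0.020 and 30.6% of them were higher beyond their interval. Rrm2 had 2073 and 2982 reads, and Cdt1, which loads the helicase, 621 and 836 reads, a log2 ratio of 0.81. The 6 helicase subunits Mcm2 to Mcm7 were close to each other, at 0.53 to 0.64. In these 2 libraries Rn45s, the ribosomal precursor, took 5.91% and 10.9% of reads and 10 of 11 blood endothelial markers were lower (7018 against 4337 CPM), and their part in the differences was not tested.

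The transcription factors of the cycle were among the genes with the highest ratios in OE-BECs. Mybl2 (B-Myb) had 384 and 659 reads, 2.24-fold higher in normalized counts, E2f8, an E2F family repressor, 1196 and 1753 reads, 1.91-fold, and Foxm1 2315 and 3299 reads, 1.86-fold. E2f1 had a log2 ratio of 0.40, and E2f2, with 32 and 14 reads, an interval that includes 0. In OE-LECs the same genes had log2 ratios of 0.24 (Mybl2), 0.21 (E2f8), -0.08 (Foxm1) and 0.0047 (E2f1).

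In OE-LECs the mitosis genes were lower and the S phase genes were split around 0. All 17 mitosis genes were lower than in Cont LECs, each beyond its interval, although the differences were small: the median log2 ratio was -0.30 and the values ran from -0.09 (Kif20a, with 29.3% of exon bases overlapping Cdc23) to -0.47 (Aurkb). The kinase Aurkb had 2505 and 2122 reads, the mitotic cyclin Ccnb1 2246 and 1963 reads (-0.42), and the checkpoint kinase Bub1b 3521 and 3038 reads (-0.44). Top2a, which untangles sister DNA, had 18939 and 17494 reads (-0.35), and Cdk1, the mitotic kinase, 6727 and 7053 (-0.16). Cdk1 was lower only after scaling to library size, and so were Kif20a, Cenpe and Mki67. The S phase median was 0.016, with 8 genes higher and 6 lower, from Tyms at -0.24 to Rrm2 at 0.36 (13941 and 20989 reads). The median over all genes was 0.0063, and 24.5% of them were lower beyond their interval. In these libraries 8 of 11 blood endothelial markers were lower (5421 against 5083 CPM), and their part was not tested.

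The gap between the groups, S phase median minus mitosis median, was -0.19 in the library labelled cKO, 0.075 in OE-BECs and 0.31 in OE-LECs. All 17 mitosis genes lay below the S phase median in OE-LECs, 11 of 17 in OE-BECs and 2 of 17 in skin.

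**Figure D4:**
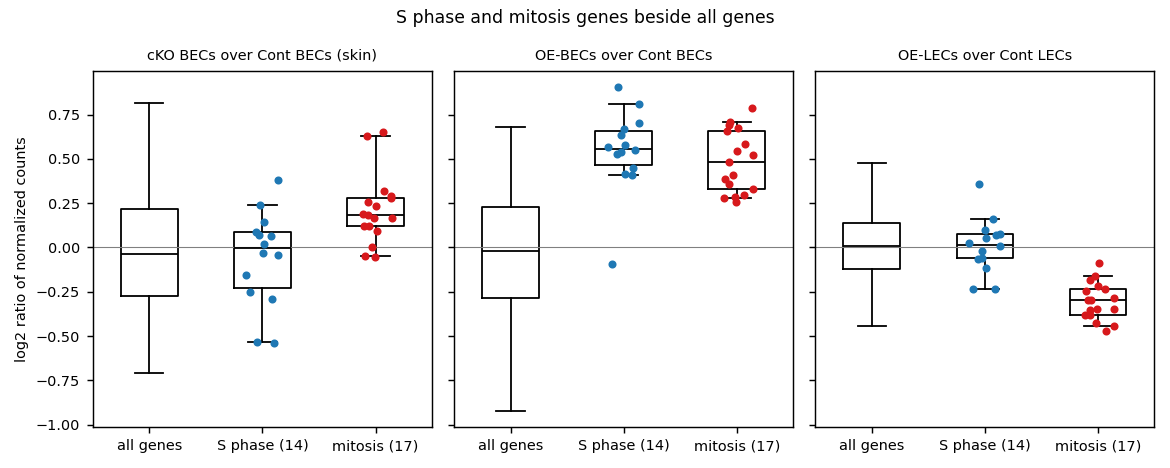
Log2 ratios of all genes with at least 100 normalized counts, of the 14 S phase genes and of the 17 mitosis genes in each comparison. Boxes span the quartiles with the median as a line, whiskers the 5th to 95th percentile, and points are single genes. Mitosis genes sit under the S phase genes in OE-LECs (medians -0.30 and 0.016) and over them in skin (0.18 and -0.0055).

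Genes of the same pathways outside the 42 were described the same way. Their lists too were chosen with earlier results of these data known, so they are no independent check. Among 38 other mitosis genes the median log2 ratio was 0.21 in the library labelled cKO, 0.49 in OE-BECs (38 of 38 higher) and -0.25 in OE-LECs (36 of 38 lower, 34 beyond their interval). Among 35 other replication genes it was -0.033, 0.42 and 0.0060. The gap, replication minus mitosis, was -0.24 in skin, -0.075 in OE-BECs and 0.25 in OE-LECs, so in OE-BECs it had the opposite sign to that of the 42 genes. By the 1.5-fold rule the library labelled cKO had 3 of the 38 mitosis genes higher, namely Ube2c (706 and 1582 reads), the ubiquitin enzyme of anaphase, Cdc25b and Ncapd2, a share below the 8.88% of all genes. In OE-BECs 10 were higher, led by Anln, Pttg1 and Ncapg, against 7.25% of all genes. Of the 35 replication genes 10 were higher in OE-BECs, led by Dscc1, Tk1 and Gins1, and 1 was lower in skin cells labelled cKO (Pole2, 239 and 202 reads), a share below the 7.69% of all genes. Of 17 other G1 and E2F genes 1 was higher in OE-BECs (E2f6), also below the share of all genes. Among 7 inhibitors of cyclin-dependent kinases, Cdkn2b (2.08-fold) and Cdkn2d (1.81-fold) were higher in OE-BECs, against 7.25% of all genes. Cdkn1c, named after its value was seen, had the highest log2 ratio of these inhibitors there (1.61). It passed the 3-fold rule with under 100 normalized counts, as did 8.02% of genes with at least 3. Of the 5 MuvB core genes Lin9 was higher (1.53-fold), again against 7.25%. Lists this short allow no reading of such counts. In OE-LECs 0 genes of these lists passed the 1.5-fold rule, against 3.72% of all genes higher and 3.05% lower.

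The ratios of the 2 lines can be set side by side because each line has its own control, though overexpression and differences between cultures cannot be told apart. Of the 42 genes 24 lay on opposite sides of 0 beyond both intervals. These were the 17 mitosis genes and Ccnd2, Ccnd3, Foxm1, Mcm2, Mcm3, Rrm1 and Tyms. How often this happens among all genes was not computed, so the count of 24 has no background. Each line taken alone had many such intervals among genes with at least 100 normalized counts. For OE-BECs 30.6% of intervals lay above 0 and 35.1% below, and for OE-LECs 27.8% and 24.5%. The median difference, OE-LECs minus OE-BECs, was -0.76 for the mitosis genes and -0.55 for the S phase genes. The Cont LECs already stood above the Cont BECs of the line before overexpression in 14 of 14 S phase and 13 of 17 mitosis genes (CPM), with medians of 0.80 and 1.11 on the log2 scale, and these are 2 lines of different tissue grown separately.

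**Figure D5:**
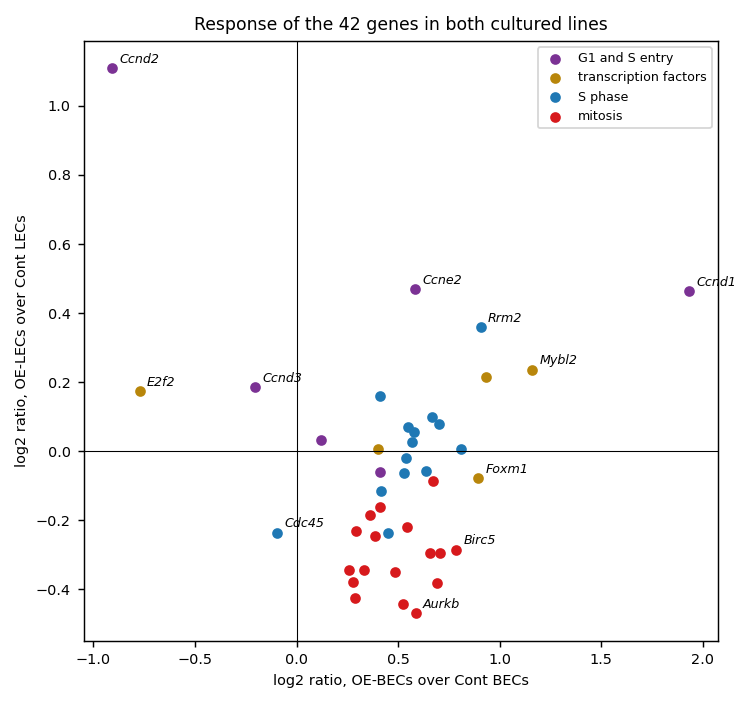
Log2 ratio in OE-BECs (horizontal) against that in OE-LECs (vertical) for the 42 genes, coloured by group. The mitosis genes are all in the lower right (higher in OE-BECs, lower in OE-LECs), and Ccnd2 is farthest to the upper left with -0.91 and 1.11.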

How the data were processed

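RNA-seq counts of 6 libraries were used, 1 per condition, grouped by the labels. The authors made libraries with ScriptSeq v2, trimmed reads with skewer 0.2.2, aligned them to mm10 with STAR 2.7.9a, counted reads per gene with VERSE 0.1.5 (option -S) and deposited the raw counts. The sources used here do not say what this option sets or whether strand was used, so reads of genes that overlap another gene are uncertain.

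From these counts, CPM, TPM (exon length from GENCODE M21, for 95.7% of genes) and normalized counts (median of ratios on the pair of libraries, DESeq2 1.42.0, R 4.3.3) were computed here. Log2 ratios used a pseudocount of 1 and have exact (Clopper-Pearson) 95% intervals on the reads. These cover counting error only, because each condition has 1 library. They take every read as independent. Amplified reads with no molecular tag do not count separate molecules, so the intervals can be too narrow even for that error. The study's rule asked for over 3-fold with at least 5 (cKO) or 3 (OE) normalized counts. TMM factors came from edgeR 4.0.16. Ratios and intervals were run on simulated data with Python 3.11.15. These data held counting error only, as the intervals assume, so the run checked the computation and not the width of the intervals for real libraries. All 42 members are named, and of each pathway list up to 3 genes in each direction past the 1.5-fold rule. The members and lists were chosen with earlier results of these data known. Alternatives were other scalings, a pseudocount of 0.1, other minima and folds, and leaving out members. Comparisons of the authors' own were not used.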

Additional observations from a re-analysis of the deposited data

Results flagged for a closer look

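The ratios of the overexpressing library over its control differed between the 2 cultured lines. The difference itself was not tested, since each condition has 1 library. For the same reason overexpression and differences between separate cultures cannot be told apart. The median log2 ratio of the 17 mitosis genes was 0.48 in OE-BECs and -0.30 in OE-LECs, a difference (OE-LECs minus OE-BECs) of -0.78. For single genes the same difference was looked at where the intervals of the ratio lay above 0 in one line and below 0 in the other. Among mitosis genes it was -1.002 (Ccna2), -0.71 (Ccnb1), -0.66 (Ccnb2), -0.57 (Cdk1), -0.95 (Cdc20), -0.83 (Aurka), -1.06 (Aurkb), -1.07 (Plk1) and -0.60 (Bub1). For the rest of that group it was -0.97 (Bub1b), -1.07 (Birc5), -0.53 (Kif11), -0.76 (Kif20a), -0.54 (Cenpe), -0.63 (Cenpf), -0.68 (Top2a) and -0.76 (Mki67). Among the other genes it was 2.02 (Ccnd2), 0.39 (Ccnd3), -0.97 (Foxm1), -0.59 (Mcm2), -0.69 (Mcm3), -0.53 (Rrm1) and -0.69 (Tyms). Ccnd2 and Ccnd3 were lower in OE-BECs and higher in OE-LECs, and the other genes the reverse. The share of all genes with such opposite intervals was not computed.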

How the results depend on the processing

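The S phase and mitosis medians, and the gap between them, moved by less than the counting interval of a typical member under every alternative run, which were size factors from all 6 libraries, TMM, total counts, a pseudocount of 0.1, a mean of at least 20 normalized counts, the mean in place of the median, mitosis without Ccna2, Top2a and Mki67, and, chosen after seeing the annotation, without the 5 members that share over 10% of their exon bases with another gene. The minimum of 20 left out no S phase or mitosis gene and so could not move these values. The smaller pseudocount could hardly do so at these counts, and neither is a check of them. The interval of a typical member was wider than the small gap in OE-BECs (0.075), so staying within it says little about that gap. That gap became 0.13 without those 5 members and 0.11 without Ccna2, Top2a and Mki67, and the skin gap went from -0.19 to -0.27 with means. The gap under the other scalings, also added after seeing the data, stayed at -0.19, 0.075 and 0.31, since a scaling moves both groups alike. Of 504 recomputed member ratios, 0 changed direction among those whose interval excluded 0, and 5 lay outside their counting interval, all with total counts. The pathway list medians kept their direction except that of the other replication genes with total counts (0.022 in skin and -0.012 in OE-LECs). The S phase median, close to 0 in skin and in OE-LECs, also took both signs across scalings (-0.0055 to 0.050 and -0.0020 to 0.016). Leaving Rn45s and Malat1 out of the total moved 8 of 12 summed CPM values beyond their counting interval. Counts of members past a fold depended on the rule, and in OE-BECs also on the scaling. By the 1.5-fold rule 14 were higher there with TMM or total counts and 18 with factors from all 6 libraries, against 16. Without the fold, on intervals alone, the 1.5-fold counts became 18 higher and 11 lower (library labelled cKO), 37 and 2 (OE-BECs) and 10 and 23 (OE-LECs). With a minimum of 20 counts 2 members were lower in OE-BECs. With a fold of at least 2 in place of 3, 2 were higher in OE-BECs and 1 in OE-LECs. No paired analysis was possible because each condition has 1 library, and no library could be left out for the same reason. With 1 library per condition, the depth limits only the counting error, which is widest for E2f2, and the spread between embryos or cultures is unknown.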
